A study of Homo sapiens with 9 samples.

Results

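ATP-binding cassette (ABC) genes were taken as the genes whose array name is ABC, a subfamily letter from A to G and a number. The array carried 67 probes of 46 such genes, of 42405 probes and 34623 gene names in all, and 38 of the 46 genes had a probe that could be tested. CFTR, TAP1 and TAP2 are ABC genes under other names and are given apart. RNA came from NT2 cells, a clonal human teratocarcinoma line that turns into neuron-like cells with retinoic acid. All cultures received 10 µM retinoic acid, and 3 arrays each were hybridized with RNA of control cultures, cultures with 1 µM paraoxon and cultures with 5 µM mipafox, after 4 days of exposure. Both are organophosphorus compounds that inhibit serine esterases. Mipafox also inhibits neuropathy target esterase, and paraoxon does not. The comparisons ask whether either compound changed gene expression while the cells committed to the neural lineage. The replicates A, B and C are biological by the sample labels and technical by the methods of the study, so that p-values may measure technical spread alone. All control arrays and mipafox A lay on slide 1, and all paraoxon arrays with mipafox B and C lay on slide 2, so slide and paraoxon cannot be told apart without the mipafox arrays. With slide as a block, the mipafox value is therefore that of mipafox A less the control mean. The paraoxon value with that block rests on mipafox A as well. The doses of the 2 compounds differ, and their values are given side by side without a test between them. Both comparisons share the 3 control arrays.

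ABC proteins use ATP to move substrates across membranes. A full transporter has a pair of nucleotide-binding domains and a pair of membrane domains, while some members supply one of each and work as dimers. Subfamily A mostly moves lipids, B holds the multidrug exporter ABCB1 and dimeric transporters of mitochondria and lysosomes, and C holds the multidrug resistance proteins and the sulfonylurea receptors. Subfamily D mostly brings fatty acids into peroxisomes, and G holds sterol exporters and the drug exporter ABCG2. E and F have no membrane domain and act in translation.

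The 60-base probes behind the results are shown first, each by its first 30 bases, because several genes were read at 2 places with different outcomes. They are copied from the array files and written 5′ to 3′ in the sense of the transcript.
ABCA1 A_33_P3422897: tcaagatttcctggtggacaatgaaacctt
ABCA1 A_24_P235429: ccaaagagccatgtgtcatgtaatactgaa
ABCA9 A_33_P3292179: gaaatacctgatgtagatgatgggttgatg
ABCC5 A_33_P3298057: aagggttgtgtggatcttctgccgcaccag
ABCC5 A_23_P258221: tcgccttagcatgtttgctgaacaccttgt
ABCC8 A_23_P24774: catcctgagtgcagacctggtgatcgtcct
ABCD3 A_33_P3307957: ccagctgcttacacaagatgtagaaaaatt
ABCG4 A_24_P355626: cacagggatgccagttgtatttgtgggatt
The ABCA1 probes start at bases 835 and 10022 of the transcript and lie at chr9:107624012-107624071 and chr9:107543704-107543763 of hg19, minus strand. The ABCC5 probes start at bases 668 and 5765 of 2 different transcript records. The ABCC8 probe starts at base 4748 and lies at chr11:17414602-17414661, minus strand. Of the 67 probes, 4 shared 16 or more consecutive bases with a probe of another gene name. ABCC6 has near-identical copies elsewhere in the genome, so the values of its probes are uncertain.

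Most of the family read above background in NT2 cells. A probe counted as detected if all 3 arrays of some treatment read it well above background, and 38 of the 46 genes had such a probe. On the whole array 23760 of 34623 gene names had a tested probe. On all 9 arrays 48 of the 67 probes were well above background, and 15 were on none. All genes of subfamilies E and F were detected, that is ABCE1, which recycles ribosomes, and ABCF1, ABCF2 and ABCF3. In subfamily A 10 of 12 genes were detected, in B 7 of 9, in C 10 of 12, in D 3 of 4 and in G 4 of 5. The 8 genes without a detected probe were ABCA6, ABCA8, ABCB5, ABCB11, ABCC12, ABCC13, ABCD2 and ABCG8. ABCB11 is the bile salt export pump of the liver, and ABCG8 is the partner of ABCG5 in sterol export from liver and gut. ABCG5 itself was well above background on all 9 arrays, at a log2 signal of -4.97 ± 0.15 in control (SD, n = 3), where 0 is the array's 75th percentile.

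**Figure D1:**
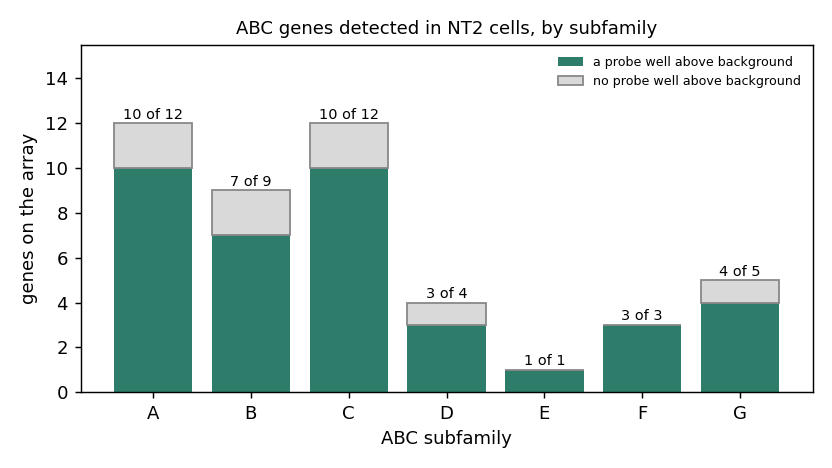
Number of ABC genes on the array in each subfamily (x axis) with a detected probe (green) and without one (grey). Subfamilies E and F were detected whole, and the 8 undetected genes lay in subfamilies A, B, C, D and G.

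Detection at a gene could depend on the probe. ABCB1 encodes P-glycoprotein, the exporter of many drugs. Its probe at base 3969, A_23_P82523, was well above background on all 9 arrays, while its probe at base 499, A_33_P3332414, was so on 2 control arrays and on no other. The signal of the latter was -6.35, -6.81 and -6.98 in control A, B and C, -6.93, -8.81 and -7.93 with paraoxon, and -8.10, -6.96 and -7.22 with mipafox, and it was not tested. ABCC3, ABCC9 and ABCD4 each had 1 probe on all 9 arrays and 1 on none, the undetected ABCC3 and ABCD4 probes on transcript records of their own. The undetected ABCD4 probe lies on the plus strand and the detected one on the minus strand, so the former does not read the same transcript. Of the probes tested, ABCA12 was well above background on 8 arrays, ABCA2 A_33_P3251672 on 7 and ABCB9 on 4.

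CpG content at the start of the genes was counted next. RefSeq windows of GRCh38.p14, each with 250 bases before the start and 50 after it, were given for 35 of the genes. A window counted as CpG-rich at a ratio of observed to expected CpG of at least 0.6 and a GC content of at least 50%. Of 30 detected genes 22 had a CpG-rich window, and of 5 undetected genes 0 had one, against 50.2% of 27305 genes with a window. The highest ratio per gene had a median of 0.826 in detected genes and of 0.285 in undetected genes. Detected genes with a low ratio were ABCC2 at 0.066, ABCA9 at 0.085 and ABCA13 at 0.171 among others, and ABCA10 and ABCC9 passed the ratio but not the GC content. GGGCGG or its complement CCGCCC was found in 25 of the 53 windows of these genes, against 45.0% of all windows. By gene, 20 detected and 1 undetected genes had it in some window. CCAAT or ATTGG was found in 12 of the 53 windows, against 34.6% of all windows, and by gene in 8 detected and 3 undetected genes. These are counts of letters in small groups and were not tested. The 150 bases before the start of a detected gene, ABCE1, and of an undetected one, ABCB11, show the contrast, with each CpG in capitals. They lie at chr4:145098161-145098310, plus strand, and chr2:169031325-169031474, minus strand.
ABCE1: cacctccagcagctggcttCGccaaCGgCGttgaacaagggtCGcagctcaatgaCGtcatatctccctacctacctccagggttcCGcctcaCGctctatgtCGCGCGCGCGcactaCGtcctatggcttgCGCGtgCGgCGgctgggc
ABCB11: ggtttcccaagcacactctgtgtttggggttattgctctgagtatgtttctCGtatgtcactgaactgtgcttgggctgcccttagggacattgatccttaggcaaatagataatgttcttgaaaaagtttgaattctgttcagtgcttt
The ABCE1 stretch holds 17 CpG and the ABCB11 stretch 1.

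The 51 tested ABC probes gave no call in either comparison. By limma over the 9 arrays, no ABC probe had an adjusted p under 0.05, and neither did any of the 29134 probes tested, 0% for paraoxon and 0% for mipafox. The smallest adjusted p among ABC probes was 0.258 with paraoxon and 0.617 with mipafox. At an unadjusted p under 0.05, 5 of 51 ABC probes passed with paraoxon, 3 higher and 2 lower, or 9.8% against 13.3% of all probes. With mipafox 4 passed, 2 higher and 2 lower, or 7.84% against 6.96%. The 3 paraoxon arrays did not overlap the 3 control arrays at 12 ABC probes, or 23.5% against 23.4% of all probes, and the mipafox arrays at 6, or 11.8% against 11.8%. These shares lay near or below those of the whole array.

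ABC levels moved little in size as well. The median log2 fold change of the 51 probes was 0.00 with paraoxon (all probes 0.01) and 0.06 with mipafox (all probes 0.00). With paraoxon 27 probes were higher and 24 lower, and 48 of the 51 lay within 0.5 of 0, against 84.1% of all probes. With mipafox 29 were higher and 22 lower, and all 51 lay within 0.5, against 90.8% of all probes. The median standard error of a change was 0.18. With weights estimated for each array, 1 ABC probe had an adjusted p under 0.05 with paraoxon (13.8% of all probes) and 7 did with mipafox (19.8%). The weights ran from 0.28 for mipafox C to 4.37 for control B.

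**Figure D2:**
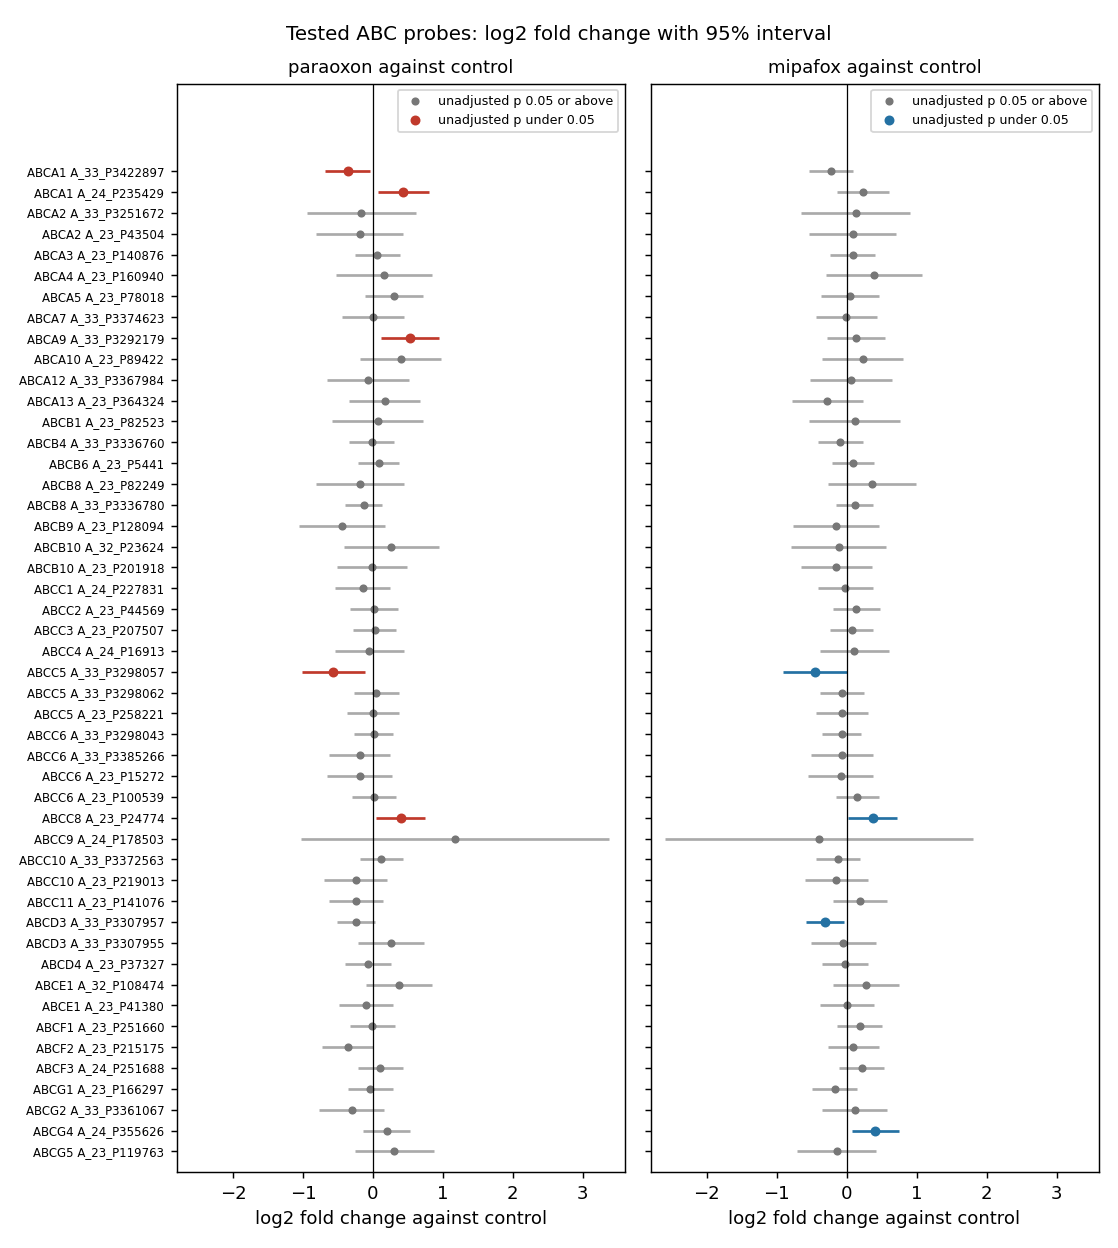
Log2 fold change against control (x axis) with its 95% interval for 48 of the 51 tested ABC probes (rows), with paraoxon on the left and mipafox on the right; coloured points have an unadjusted p under 0.05. Coloured points number 5 and 4, and ABCC9 has the widest interval.

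The drug exporters set by the rule for named genes showed no difference beyond the spread of the arrays. ABCB1 A_23_P82523 read -5.55, -5.40 and -5.33 in control A, B and C, -5.31, -4.95 and -5.81 with paraoxon, and -5.90, -5.18 and -4.85 with mipafox. The groups overlapped, and the treated arrays lay on both sides of the control arrays. Its log2 fold change was 0.07 ± 0.29 (SE, adjusted p = 0.956) with paraoxon and 0.12 ± 0.29 (adjusted p = 0.975) with mipafox. With slide as a block the paraoxon value was -0.81 and the mipafox value -0.47, and mipafox B and C on slide 2 lay 0.88 above mipafox A on slide 1. ABCC1, the exporter of glutathione conjugates, differed by -0.14 ± 0.17 (SE, adjusted p = 0.807) with paraoxon and -0.02 ± 0.17 (0.996) with mipafox, and with slide as a block by -0.59 ± 0.26 (adjusted p = 0.613) and -0.32 ± 0.20. ABCG2, an exporter of drugs and porphyrins known from stem cells, read -5.47, -5.72 and -6.15 in control, -5.79, -6.32 and -6.13 with paraoxon and -5.72, -5.52 and -5.75 with mipafox. Its change was -0.30 ± 0.21 (SE, 95% interval -0.76 to 0.16) with paraoxon and 0.12 ± 0.21 (-0.35 to 0.58) with mipafox, the latter 0.06 with slide as a block. Of the 16 tested probes of drug and conjugate exporters, which come from 10 detected genes of 11, 1 passed the unadjusted limit in each comparison, the ABCC5 probe below. The median of the 16 was -0.03 with paraoxon and -0.04 with mipafox.

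ABCC5, an exporter of cyclic nucleotides and nucleotide analogues, differed from control at 1 of its 3 probes before adjustment. A_33_P3298057 read -2.83, -3.06 and -3.25 in control A, B and C, -3.28, -3.67 and -3.90 with paraoxon, and -3.30, -3.46 and -3.73 with mipafox. All treated arrays lay below all control arrays. The log2 fold change was -0.57 ± 0.20 (SE, unadjusted p = 0.0189, adjusted p = 0.259) with paraoxon and -0.45 ± 0.20 (unadjusted p = 0.0499, adjusted p = 0.718) with mipafox. At the other probes, A_33_P3298062 and A_23_P258221, the changes were 0.05 and 0.00 with paraoxon and -0.07 and -0.06 with mipafox. On slide 1 the difference of mipafox A from control at A_33_P3298057 was -0.26, and mipafox B and C on slide 2 lay 0.29 below mipafox A, so the slides differed there by about as much. With slide as a block the changes were -0.28 with paraoxon and -0.26 with mipafox, the latter being the mipafox A difference again.

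The sulfonylurea receptors are ABC proteins that do not transport but gate potassium channels in response to ATP. ABCC8, the receptor of neurons and insulin-secreting cells, read -4.15, -4.00 and -4.06 in control A, B and C, -3.65, -3.87 and -3.49 with paraoxon, and -3.62, -3.56 and -3.92 with mipafox. All 6 treated arrays lay above all 3 control arrays. The log2 fold change was 0.40 ± 0.16 (SE, unadjusted p = 0.0302, adjusted p = 0.310) with paraoxon and 0.37 ± 0.16 (unadjusted p = 0.0404, adjusted p = 0.696) with mipafox. Mipafox A, on the slide of the control arrays, lay 0.45 above their mean, and mipafox B and C on the other slide lay 0.11 below mipafox A. With slide as a block the values were 0.51 ± 0.28 and 0.45 ± 0.22 (SE), the latter being the mipafox A difference again. With array weights the limma adjusted p was 0.0340 for paraoxon and 0.0183 for mipafox. That setting put 13.8% and 19.8% of all probes under 0.05. Other ABC probes under 0.05 there with mipafox included ABCG4 (adjusted p = 0.0093) and ABCD3 A_33_P3307957 (0.0229). Of the channel subunits that pair with these receptors, KCNJ8 was detected and differed by 0.01 and -0.02, and the probe of KCNJ11, the usual partner of ABCC8, was well above background on 2 of 9 arrays and not tested.

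ABCC9, the other sulfonylurea receptor, owed its change to 1 array. A_24_P178503 read -1.23 on paraoxon C and between -5.95 and -4.88 on the other 8 arrays. The probe is a single spot, with a mean pixel signal of 343 on paraoxon C and neither an outlier mark nor saturation. The fold change of 1.17 ± 0.97 (SE, adjusted p = 0.680) with paraoxon became -0.25 with paraoxon A and B alone. It was the 1 ABC probe beyond a log2 fold change of 1, and the second ABCC9 probe was well above background on no array.

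The lipid exporters were led by ABCA1, which loads cholesterol onto apolipoprotein A-I. Its probe near the 3′ end, A_24_P235429, read 0.29, 0.83 and 0.44 in control A, B and C, 0.96, 0.94 and 0.95 with paraoxon, and 0.61, 0.75 and 0.88 with mipafox. Its probe near the 5′ end, A_33_P3422897, read -3.62, -3.58 and -3.64 in control, -3.82, -4.17 and -3.92 with paraoxon, and -3.69, -3.95 and -3.87 with mipafox. With paraoxon the former was above all control arrays and the latter below them. The log2 fold changes were 0.44 ± 0.16 (SE, unadjusted p = 0.0252, adjusted p = 0.288) and -0.36 ± 0.14 (unadjusted p = 0.0309, adjusted p = 0.313). With mipafox they were 0.23 ± 0.16 and -0.22 ± 0.14, so the probes read the same gene in opposite directions in both comparisons, and no direction is given for ABCA1. With slide as a block the values were 0.23 and -0.14 with paraoxon and 0.10 and -0.08 with mipafox. The partner APOA1 differed with paraoxon by -0.49 at A_23_P203191 (adjusted p = 0.362) and by 0.09 at A_33_P3298539. NR1H2, the liver X receptor beta that drives ABCA1 and ABCG1, differed by -0.69 with paraoxon (adjusted p = 0.249), and NR1H3, the alpha form, by -0.04. APOA1 A_23_P203191 and NR1H2 both read lowest on paraoxon C, at -4.18 and -3.34. With slide as a block their paraoxon values were -0.38 ± 0.39 and -0.36 ± 0.42 (SE, adjusted p = 0.762 and 0.788).

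ABCG4, which exports cholesterol in brain cells, had the smallest unadjusted p with mipafox. It read -3.42, -3.48 and -3.40 in control, -3.18, -3.42 and -3.11 with paraoxon, and -2.95, -2.89 and -3.24 with mipafox. The mipafox arrays lay above the control arrays, and 1 paraoxon array lay level with one of them. The change was 0.41 ± 0.15 (SE, unadjusted p = 0.0220, adjusted p = 0.617) with mipafox and 0.20 ± 0.15 (adjusted p = 0.637) with paraoxon, and mipafox A alone lay 0.48 above control on slide 1. The 12 tested probes of the sterol and phospholipid exporters had a median of -0.01 with paraoxon and 0.07 with mipafox, and 10 of these 12 genes were detected.

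ABCA9 lies in a cluster of subfamily A genes on chromosome 17 with ABCA5, ABCA6, ABCA8 and ABCA10. Its probe A_33_P3292179 read 2.89, 2.95 and 2.70 in control, 3.23, 3.20 and 3.69 with paraoxon, and 3.00, 3.21 and 2.76 with mipafox. The paraoxon arrays lay above the control arrays, while the mipafox arrays overlapped them. The change was 0.52 ± 0.18 (SE, unadjusted p = 0.0184, adjusted p = 0.258) with paraoxon, the smallest p of the family, and 0.14 ± 0.18 (adjusted p = 0.951) with mipafox. Within slide 2 the paraoxon mean lay 0.39 above mipafox B and C. ABCA10 differed by 0.40 (unadjusted p = 0.154) and ABCA5 by 0.30 (unadjusted p = 0.136) with paraoxon, while ABCA6 and ABCA8 were not detected. Without a slide term all 3 tested probes of the cluster were higher than control in both comparisons. With slide as a block the paraoxon values were 0.54 for ABCA9, 0.11 for ABCA5 and -0.50 ± 0.29 (SE) for ABCA10. The mipafox values with that block were 0.15 for ABCA9, -0.08 for ABCA5 and -0.37 for ABCA10. ABCA10 differed between mipafox B and C and mipafox A by 0.90, so its sign depended on the slide term. A common direction of the cluster was not tested.

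Of the dimeric transporters of peroxisomes and lysosomes, ABCD3, an abundant protein of the peroxisome membrane, differed before adjustment at A_33_P3307957, which read -4.18, -4.17 and -4.28 in control, -4.38, -4.42 and -4.55 with paraoxon, and -4.49, -4.55 and -4.53 with mipafox. No treated array overlapped the control arrays. The change was -0.31 ± 0.12 (SE, unadjusted p = 0.0303, adjusted p = 0.658) with mipafox and -0.24 ± 0.12 (adjusted p = 0.436) with paraoxon. The other ABCD3 probe, A_33_P3307955, differed by -0.05 with mipafox and by 0.26 with paraoxon. The mitochondrial transporters ABCB6, ABCB8 and ABCB10 were detected on all 9 arrays. None of the 6 probes of mitochondrial members passed the unadjusted limit, and the changes ran from -0.19 to 0.27 with paraoxon and from -0.15 to 0.36 with mipafox.

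The family members without membrane domains gave no probe under the unadjusted limit. ABCE1 A_23_P41380 read 0.79, 0.75 and 0.74 in control, 0.58, 0.69 and 0.73 with paraoxon, and 0.40, 0.86 and 1.04 with mipafox. The paraoxon arrays lay just below the control arrays, and the mipafox arrays lay on both sides of them. The change was -0.10 ± 0.17 (SE, adjusted p = 0.875) with paraoxon and 0.01 ± 0.17 (0.998) with mipafox, and the second probe, A_32_P108474, gave 0.38 and 0.28. With slide as a block A_23_P41380 was at -0.64 ± 0.21 (SE, adjusted p = 0.613) with paraoxon and -0.35 ± 0.17 with mipafox, and A_32_P108474 at -0.19 and -0.11. ABCF2 missed the unadjusted limit with paraoxon at -0.36 ± 0.16 (SE, unadjusted p = 0.0514). The 5 tested probes of these 4 genes had a median of -0.01 with paraoxon and 0.19 with mipafox.

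**Figure D3:**
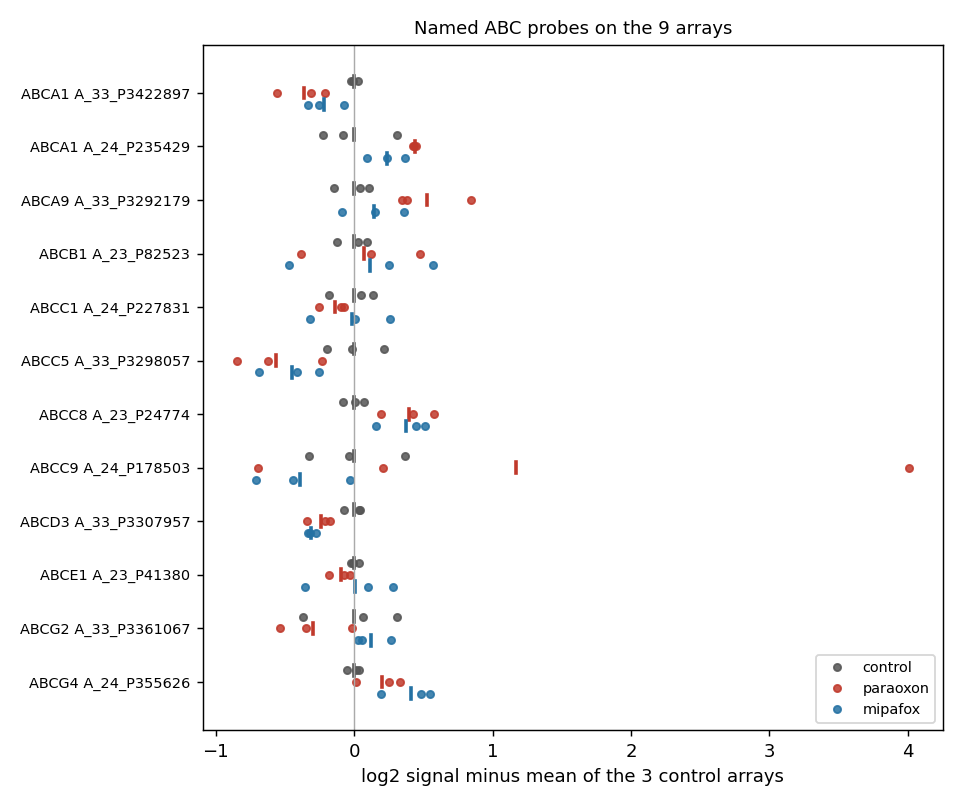
Log2 signal minus the mean of the 3 control arrays (x axis) for the named ABC probes and ABCC9 (rows) on each of the 9 arrays; dots are arrays, short bars are group means, grey is control, red paraoxon and blue mipafox. ABCC9 on paraoxon C stands 4 units from its control mean, and for ABCC8 all treated dots lie right of all control dots.

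More than 1 probe was tested for 10 genes, and 8 of them had probes of opposite sign with paraoxon and 2 with mipafox. The gap between the probes of a gene with paraoxon reached 0.80 in ABCA1, 0.62 in ABCC5 and 0.50 in ABCD3. ABCB8 and ABCA2 probes were within 0.06 of each other with paraoxon.

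**Figure D4:**
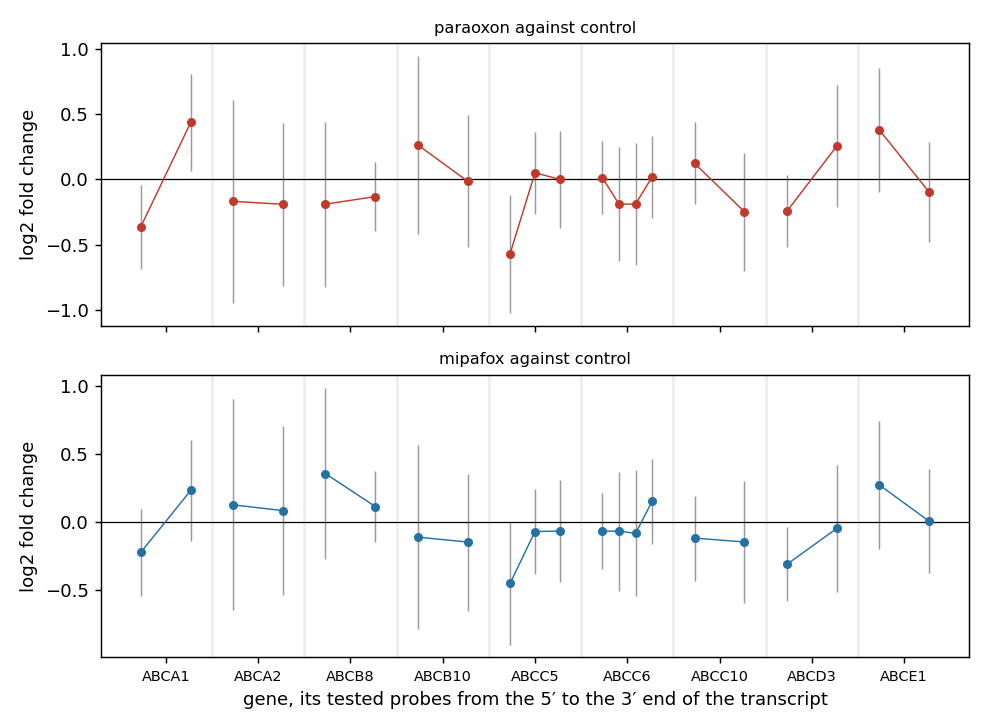
Log2 fold change with its 95% interval (y axis) of each tested probe of 9 of the 10 ABC genes with several, ordered from the 5′ to the 3′ end of the transcript within a gene, with paraoxon above and mipafox below. The 2 ABCA1 probes lie on opposite sides of 0 in both panels, and 1 of 3 ABCC5 probes lies apart.

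The ABC genes with other names gave no adjusted call either. CFTR, a chloride channel, differed by -0.31 with paraoxon (unadjusted p = 0.0456, adjusted p = 0.359) and by -0.33 with mipafox (unadjusted p = 0.0392, adjusted p = 0.696). TAP1 and TAP2, which carry peptides for antigen presentation, differed by 0.13 and 0.00 with paraoxon. Of 20 tested probes of partners and regulators, 3 passed the unadjusted limit with paraoxon and 2 with mipafox, all lower, against 13.3% and 6.96% of all probes, and none passed by adjusted p. AHR, the receptor that raises ABCG2 with aromatic pollutants, differed by -0.86 with paraoxon (unadjusted p = 8.1e-05, adjusted p = 0.0733) and by -0.83 with mipafox (adjusted p = 0.279) at A_33_P3316800 and by 0.18 and -0.12 at A_23_P215566. NFE2L2 and NR1I2, further regulators of drug export, each had a lone probe, and neither probe was well above background on any array. As detection could depend on the probe, this does not show that the genes were silent.

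The marker genes of the labelled cell type were present. All 11 embryonal carcinoma markers on the array and all 7 retinoic acid response genes were detected, as were 6 of 7 neural progenitor and neuron markers. Of markers of other cells, 1 of 3 hepatocyte, 2 of 3 blood, 3 of 3 endothelial and 3 of 4 fibroblast genes had a detected probe, while ALB, TTR, HBB and DCN did not. No marker probe had an adjusted p under 0.05. The largest difference among them, 1.15 with paraoxon (unadjusted p = 0.000354, adjusted p = 0.0764), was at 1 of 5 probes of the blood marker PTPRC. Its other probes failed the detection rule and were not tested, although A_33_P3309526 was well above background on 5 arrays. The share of all probes well above background ran from 65.7% on paraoxon C to 73.6% on control B, and the number of ABC probes from 48 to 52.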

How the data were processed

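RNA of NT2 cells was measured on 9 one-colour Agilent arrays, 3 per treatment. The authors extracted spot intensity values, on a linear scale, with Agilent Feature Extraction 10.5.1.1, as the file headers give it, and deposited these files and a table of processed log2 values, which was used as an alternative and holds 50 of the 51 tested ABC probes. From these, log2 processed signals less the 75th percentile of the array were used, without control or outlier spots and averaged over spots of a probe. A probe had to be well above background on all arrays of some treatment and to have 2 or more values in each. The 29134 such probes entered limma 3.58.1 in R 4.3.3, one mean per treatment over all 9 arrays, with Benjamini-Hochberg adjustment over all of them. The number of arrays limits the precision. A subtraction of the percentile takes away any change common to most probes. The script was tested on simulated data.

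Named genes were ABCB1, ABCC1, ABCG2, ABCA1 and ABCE1 at their brightest probe, and every ABC probe with an unadjusted p under 0.05 (at most 15 per comparison). Some items are not reported here by name; counts include them. ABCC9, ABCF2 and the genes beside a named one were picked with their values known. The members and the lists were chosen with earlier results of these data known. Alternatives were the normalization, background correction, the authors' values, the filter, blocks for slide or replicate letter, fits of 2 treatments alone, another variance model, weights per array, outlier marks, 1 probe per gene and each array left out. Probe coordinates are on hg19, the build of the files. Start windows are RefSeq's, on GRCh38.p14.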

Additional observations from a re-analysis of the deposited data

How the results depend on the processing

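The correlation of same-letter deviations between treatments ran from -0.60 to 0.57, and that of different letters from -0.59 to 0.66. With 3 arrays per treatment these ranges cannot decide whether the letter pairs the arrays. With the replicate block 4 ABC probes passed the unadjusted limit with paraoxon and 2 with mipafox, with no adjusted call. The count at an unadjusted p under 0.05, 5 with paraoxon, was 3 with normexp background correction (9.18% of all probes), 1 with slide as a random block (7.08%), 8 with the 2 treatments alone (15.6%), 13 with array weights (29.9%) and 3 with the brightest probe per gene. For mipafox it moved from 4 to 0 with normexp (4.61%), 1 with slide as a fixed block (5.48%), 1 with trend and robust variance (6.56%), 17 with array weights (37.2%) and 2 with the brightest probe per gene. The adjusted count was 1 and 7 with array weights, and 0 under every other setting. The median with paraoxon was 0.0463 with normexp and 0.0516 without the filter. Leaving out 1 array gave counts from 1 to 7 with paraoxon (1 without control A, 2 without paraoxon B, 3 without paraoxon C) and from 0 to 5 with mipafox (0 without mipafox B, 1 without control B, 2 without control C), and medians from -0.03 to 0.04 and from 0.0079 to 0.1145 (the latter without control A, the former without control B).

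Several small changes turned sign. With slide as a fixed block the values were -0.81 for ABCB1 with paraoxon, and -0.47 for ABCB1 and -0.35 for ABCE1 with mipafox. With slide as a random block they were -0.15 for ABCB1 with paraoxon, and -0.0271 for ABCB1 and -0.0811 for ABCE1 with mipafox. With mipafox ABCE1 was -0.0062 by quantile normalization and -0.0062 by normexp, and ABCC1 was 0.0148 by normexp and 0.0924 by the authors' values. Leaving out 1 array gave -0.13 to 0.30 for ABCB1 with paraoxon. With mipafox it gave -0.11 to 0.41 for ABCB1, -0.16 to 0.13 for ABCC1, -0.0667 to 0.272 for ABCG2 and -0.13 to 0.19 for ABCE1. The other named probes kept their direction under every setting that gave them a value. The number of ABC genes detected was 36 on all 9 arrays and 38 on at least 1. The causes were not tested.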
